A study of Mus musculus with 9 samples.

Results

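The unmutated crypts of the mouse jejunum were described from 3 control libraries, numbered control 0, 1 and 2, out of 9 libraries in the series. They were chosen by their column names in the deposited table that holds the controls together with the Smad4-deleted libraries, and the mutant columns were not used. The other 6 libraries, 3 per group, came from Smad4f/f;Villin-CreER(T2) mice and from Smad4f/f; Ex3f/+;Villin-CreER(T2) mice, in both of which tamoxifen was given on 4 consecutive days and tissue was taken 1 day later. The control group is labelled only as control mouse, with vehicle as its treatment in the sample labels but uninjected in the design text. Its strain, age, floxed alleles and recombinase status are not given in the labels. All groups shared the preparation: EDTA at 3 mM loosened the epithelium from the jejunal wall, a filter of 70 micron pore size collected the crypts, and total RNA was made into libraries with a TruSeq kit that does not mark strand. Values are FPKM, fragment numbers scaled by transcript length and library size, so levels of different genes are compared per length.

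Crypts are pockets of the intestinal epithelium at the base of the villi. Stem cells that carry the receptor Lgr5 sit at the crypt base between Paneth cells, which secrete lysozyme and alpha-defensins into the lumen and supply Wnt and Notch ligands to the stem cells. Above them, dividing progenitors become absorptive enterocytes or secretory goblet, enteroendocrine and tuft cells.

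The 5 markers that describe the preparation were all present, at very unequal levels. Defa24, an alpha-defensin of Paneth cells, had the highest mean of all 23951 entries, with 61154, 46843 and 33001 FPKM in controls 0, 1 and 2. Lyz1, the Paneth cell lysozyme, ranked 2nd with 23412, 7275 and 7611 FPKM. Control 0 was the highest library for both genes, and Lyz1 differed little between controls 1 and 2. Fabp1, a fatty acid-binding protein of enterocytes, ranked 50th with 654, 1017 and 2025 FPKM. Olfm4, a secreted glycoprotein of crypt base stem cells, ranked 66th with 981, 1435 and 585 FPKM. Lgr5, the R-spondin receptor that defines the stem cells, ranked 8021st with 8.43, 6.72 and 6.04 FPKM. The markers thus did not share an order: control 0 was highest for Defa24, Lyz1 and Lgr5, control 1 for Olfm4 and control 2 for Fabp1.

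**Figure D1:**
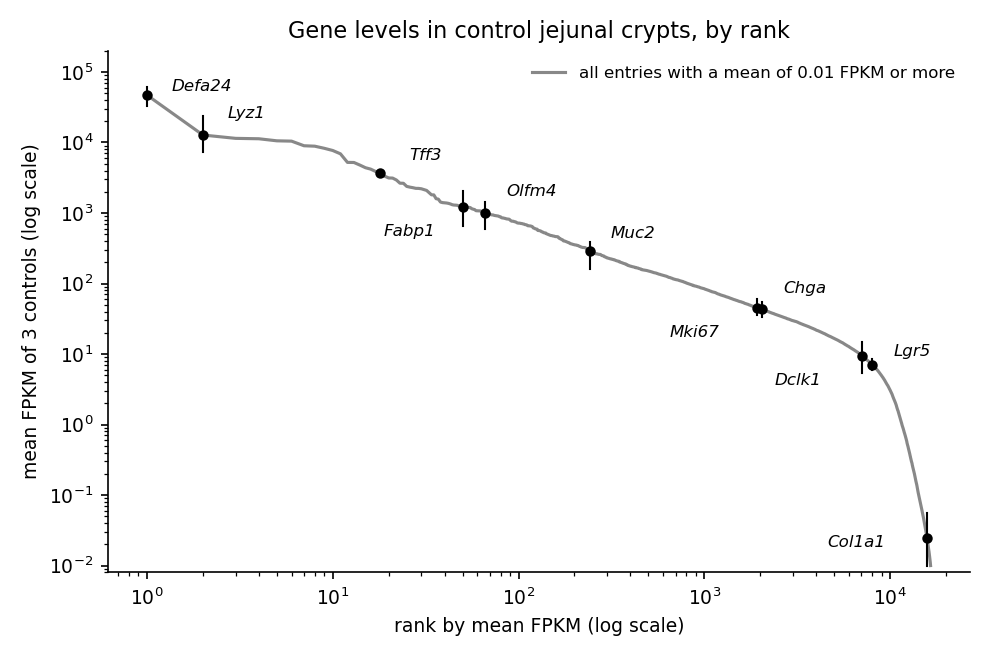
Mean FPKM of the 3 controls against the rank of each entry, both on log scales; points mark named genes and vertical bars run from the lowest to the highest library. Defa24 stands at rank 1 with a mean of 46999 FPKM, Olfm4 and Fabp1 near 1000 FPKM, and Lgr5 at rank 8021.

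The libraries differed among themselves in makeup, and control 0 stood apart in how its signal was concentrated. In control 0, 67 entries held 50% of the summed FPKM, against 212 in control 1 and 221 in control 2. The 50 highest entries held 47.4%, 34.4% and 32.0% (mean 37.9% ± 8.26, SD, n = 3). Between 11196 and 11603 entries reached 1 FPKM in a library, 10910 did so in all of them, and 6869 were listed at 0 in all of them. The labels do not give sex. Xist, the transcript that silences 1 X chromosome in females, was at 0.130, 0.127 and 176 FPKM, and the Y-linked Eif2s3y was at 39.6, 29.4 and 0 FPKM. Control 2 therefore carried the female pattern and controls 0 and 1 the male one, so the sex of the mouse and any other property of control 2 cannot be told apart. Whether controls 0 and 1 came from different mice is not stated.

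The spread between libraries was measured as the highest (FPKM + 1) over the lowest (FPKM + 1). Among the 11580 entries with a mean of at least 1 FPKM, 1113 reached a spread of 2-fold, which is 9.61% and the background for the counts below. The highest of the 3 values fell in control 0 for 29.2% of these entries, in control 1 for 33.9% and in control 2 for 36.9%. The lowest fell in control 0 for 31.2%, in control 1 for 33.9% and in control 2 for 34.9%. Where a count is also given with each library scaled to the same summed FPKM, it has its own background, since that scaling raised control 1 and lowered control 0. Under it the highest value fell in controls 0, 1 and 2 for 9.22%, 56.8% and 34.0% of the entries, and the lowest for 67.6%, 13.4% and 18.9%. Fewer cells of a type and less RNA per cell cannot be told apart in such bulk samples, so every statement on a cell type is a statement on its transcripts.

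Transcripts of secretory cells, and of Paneth cells above all, made up the top of the ranking. Of the 25 entries with the highest means, leaving out predicted genes and small RNA genes, 11 belonged to the Paneth list, 3 to the goblet list and 1 to the enterocyte list, and 10 to none of the lineage lists. After Defa24 and Lyz1 came Ang4, an antimicrobial ribonuclease of Paneth cells, with 22746, 8942 and 2202 FPKM. Itln1, a lectin that binds microbial sugars, followed with 18652, 7968 and 4738 FPKM. Both genes fell into the same order of libraries, control 0 above control 1 above control 2, with a highest over lowest (FPKM + 1) of 10.3 for Ang4 and 3.94 for Itln1. Pla2g2a, a secreted phospholipase with antibacterial activity, was at 20072.5, 112 and 4640 FPKM. Its lowest library was control 1, the only one of the 3 below 1000 FPKM. Mptx2, a pentraxin of Paneth cells, was at 8796, 2448 and 1922 FPKM, and Mmp7, the protease that activates mouse alpha-defensins, was at 1949, 675 and 595 FPKM. In these genes control 0 lay well above the other libraries, which lay close together.

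Of the 26 entries of the Paneth list, 22 had a mean of at least 1 FPKM and 4 (Defa5, Defa23, Defa25 and Defa-rs7) were listed at 0 in every library. The spread reached 2-fold in 20 of the 22, or 90.9% against 9.61% of all entries. The 2 that stayed below were Defa24 at 1.85-fold and Defa21 at 1.83-fold. Control 0 was the highest library for 21 of the 22, against 29.2% of all entries, and control 2 was the lowest for 16, against 34.9%. The exception to the first count was Defa20, at 590, 228 and 755 FPKM. Together the list held 26.3%, 15.5% and 11.2% of the summed FPKM (17.7% ± 7.82, SD, n = 3). As deposited, the summed FPKM of the list in control 0 was 2.77 times that in control 2. Wnt3, the Wnt ligand that Paneth cells give to the stem cells, was the lowest measured member and kept the same order, at 13.0, 5.77 and 3.72 FPKM. High entries vary more than others in these libraries whatever their lineage, since 62.1% of all entries at 1000 FPKM or more reached a 2-fold spread.

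The alpha-defensins were the largest gene family of the Paneth list, and many of their genes are near copies of each other. By name or by RefSeq synonym, 28 entries of the table were alpha-defensins, 15 by name and 13 by synonym. Of these, 20 had a mean of at least 1 FPKM, and 18 were highest in control 0, against 29.2% of all entries. Near copies can share reads, so neither these entries nor the alpha-defensins counted in the Paneth list are independent of each other. Any alpha-defensin listed under another name was not counted. The 28 entries held 18.7%, 14.8% and 10.02% of the summed FPKM, and Defa24 alone made up between 44.5% and 55.6% of their sum. The next entries were Gm15284, which RefSeq names Defa30, with 16168, 10655 and 4865 FPKM, and Gm21498, which RefSeq names Defa36, with 13942, 7273 and 5762 FPKM. In both, as in Defa24, control 0 was highest and control 2 lowest. Defa21 and Defa22 were at 5105, 2791 and 4678 FPKM and at 5594, 2717 and 3342 FPKM, with control 1 lowest in both.

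The coding sequences show how alike the family members are and why their levels are reported together. They are shown 5′ to 3′ on the coding strand from GENCODE M21 (GRCm38). Defa24 codes at chr8:21734537-21735374, Gm15284 at chr8:21134663-21135500 and Defa21 at chr8:21025588-21026420, all on the plus strand in 2 coding exons and 279 bases. In Defa24, capitals mark the bases at which Gm15284 differs, and in the other sequences they mark the bases that differ from Defa24.
Defa24: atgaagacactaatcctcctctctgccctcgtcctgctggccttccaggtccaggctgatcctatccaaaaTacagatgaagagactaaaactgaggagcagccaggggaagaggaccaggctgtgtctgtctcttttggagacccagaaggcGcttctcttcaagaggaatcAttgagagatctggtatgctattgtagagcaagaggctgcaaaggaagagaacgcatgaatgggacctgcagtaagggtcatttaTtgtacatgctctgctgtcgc
Gm15284: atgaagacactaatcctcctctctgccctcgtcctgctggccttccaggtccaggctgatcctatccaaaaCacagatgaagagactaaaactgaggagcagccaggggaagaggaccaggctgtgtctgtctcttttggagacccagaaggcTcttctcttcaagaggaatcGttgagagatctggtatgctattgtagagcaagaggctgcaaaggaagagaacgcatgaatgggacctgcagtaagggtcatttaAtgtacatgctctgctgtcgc
Defa21: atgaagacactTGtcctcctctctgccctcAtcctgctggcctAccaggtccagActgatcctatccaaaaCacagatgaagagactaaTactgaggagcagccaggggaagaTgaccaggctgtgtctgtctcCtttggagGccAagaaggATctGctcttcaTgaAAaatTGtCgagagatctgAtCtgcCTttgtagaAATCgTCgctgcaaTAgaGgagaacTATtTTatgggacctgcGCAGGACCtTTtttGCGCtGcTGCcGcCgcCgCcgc
Gm15284 differs from Defa24 at 4 bases (98.6% identity), and Defa21 differs at 60 (78.5% identity). Of those 60 differences, 9 lie in the first 140 bases and 51 in the other 139. Alpha-defensins are made as precursors in this order: a signal peptide, a propiece and the mature antimicrobial peptide at the end.

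Of the 26 alpha-defensin entries with a GENCODE coding transcript, 16 others had the coding length of Defa24 and differed from it at 4 to 60 bases. A window of 50 bases was slid along each transcript and looked for in the transcripts of the other members. In 20 of the 26, more than 50% of the windows also occurred in another member, with a median of 79.5%. Defa24 was among the more distinct ones, with 28.1% of its windows shared, 26.5% with Gm15284. In contrast, Defa23 and Defa-rs7, both listed at 0, had 94.8% and 100% of their windows in other members, and Defa3 and Defa17 shared most of theirs with each other. Reads from such stretches fit several genes, so the values of single alpha-defensins are uncertain. Defa6, for which no coding transcript was matched, was at 4723 FPKM in control 0 and at 0.000552 and 0.00014 FPKM in controls 1 and 2. Lyz1 shared 16.1% of its windows with Lyz2, the lysozyme of macrophages, which was at 10.1, 3.27 and 6.02 FPKM.

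Promoters of Paneth and other listed genes were compared over the 250 bases before the start of each gene, taken from RefSeq on GRCm38.p6. Of the genes in the table, 16746 had a promoter in that set, among them 15 of the Paneth list. The alpha-defensins are shown by Defa21, whose 250 bases are identical to those of Defa22, and by Defa23, which was listed at 0 in all libraries. Fabp1, the enterocyte marker, is shown beside them. All lie on the plus strand, and capitals mark the motifs searched for on both strands: the TATA box (TATAAA), the TCF/LEF motif of Wnt effectors (CTTTGAT or CTTTGTT) and the CDX motif (CAATAAA or TTTATGG). No matches overlapped in these promoters.
Defa21, chr8:21025295-21025544: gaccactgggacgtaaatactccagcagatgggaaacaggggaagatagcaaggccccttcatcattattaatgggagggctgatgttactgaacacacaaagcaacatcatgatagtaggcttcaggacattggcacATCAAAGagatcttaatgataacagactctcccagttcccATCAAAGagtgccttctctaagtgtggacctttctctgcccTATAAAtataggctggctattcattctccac
Defa23, chr8:21054790-21055039: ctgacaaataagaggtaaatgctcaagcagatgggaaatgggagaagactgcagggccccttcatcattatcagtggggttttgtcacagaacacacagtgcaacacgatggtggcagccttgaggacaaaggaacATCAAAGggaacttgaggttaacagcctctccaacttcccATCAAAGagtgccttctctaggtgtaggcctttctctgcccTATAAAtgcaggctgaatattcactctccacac
Fabp1, chr6:71199629-71199878: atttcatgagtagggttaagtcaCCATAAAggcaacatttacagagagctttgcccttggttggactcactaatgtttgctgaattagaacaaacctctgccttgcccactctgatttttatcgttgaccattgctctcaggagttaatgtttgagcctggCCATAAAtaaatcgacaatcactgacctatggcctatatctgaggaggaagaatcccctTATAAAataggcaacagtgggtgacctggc
Defa21 holds the reverse complement of CTTTGAT at 112 and at 72 bases before the start and a TATA box at 31 bases before it. Defa23 holds the same arrangement at 114, 74 and 33 bases, although no transcript was listed. Fabp1 has a TATA box at 30 bases before its start and the CDX motif at 227 and 89 bases before it.

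The TCF/LEF motif was present in 6 of the 15 Paneth promoters, those of Defa2, Defa20, Defa21, Defa22, Defa23 and Mptx1, against 7.06% of all 16746 promoters. It was present in 3 of 36 enterocyte, 3 of 29 proliferation and 0 of 14 stem cell promoters. The TATA box was present in 7 of the 15 Paneth, 13 of 36 enterocyte, 3 of 14 stem cell and 0 of 29 proliferation promoters, against 11.9% of all. The CDX motif was present in 3 of the 15 Paneth, 3 of 36 enterocyte, 0 of 14 stem cell and 0 of 29 proliferation promoters, against 5.80% of all. For GATA these counts were 2 of 15, 9 of 36, 0 of 14 and 2 of 29, against 8.92% of all. HNF4 was in 0 of 15 Paneth and 3 of 36 enterocyte promoters, against 0.400% of all. HNF1 was in 1 of 15 and 2 of 36, against 0.758%. Neither was in a stem cell or proliferation promoter. The 5 defensin promoters with the TCF/LEF motif belong to near copies and are not independent of each other, and a match of letters is not evidence of binding. Whether any motif bears on the differences between libraries was not tested.

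**Figure D2:**
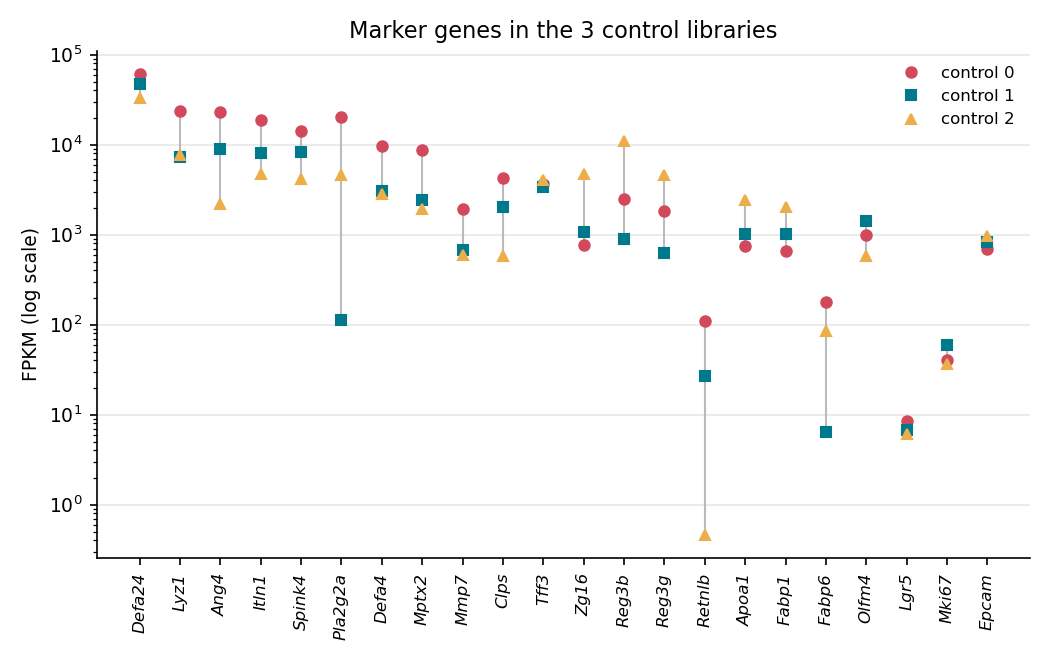
FPKM of named genes in each control library on a log scale; symbols stand for the libraries and grey lines join the lowest and highest value. Control 0 is the highest point from Defa24 to Clps, control 2 is highest for Tff3, Zg16, Reg3b, Reg3g, Apoa1, Fabp1 and Epcam, and Pla2g2a and Fabp6 are lowest in control 1.

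Stem cell transcripts were detected for every one of the 20 listed genes, at levels far below those of the Paneth genes. The list held 0.206%, 0.352% and 0.155% of the summed FPKM (0.238% ± 0.102, SD, n = 3), and Olfm4 was most of it. After Olfm4 came Slc12a2, an ion cotransporter of the crypt, with 128, 155 and 80.9 FPKM, Prom1 with 56.1, 68.3 and 52.4 FPKM and Smoc2 with 55.8, 56.6 and 48.3 FPKM. Ascl2, the transcription factor that maintains the stem cell state, had a mean of 7.04 FPKM. Control 2 was the lowest library for all 20 genes as deposited, against 34.9% of all entries, and for 16 when each library was scaled to the same sum, against 18.9%. The highest value fell in control 1 for 12 genes and in control 0 for 8. The differences were small: 3 genes reached a 2-fold spread (Olfm4 2.45-fold, Ephb3 2.40-fold and Sox9 2.07-fold), or 15.0% against 9.61% of all entries. Sox9 and Ephb3 are also made by Paneth cells, and both were highest in control 0, at 20.8, 16.0 and 9.56 FPKM and at 20.8, 9.32 and 8.09 FPKM.

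Genes of the cell cycle differed by small amounts, mostly in 1 direction. All 36 had a mean of at least 1 FPKM and none reached a 2-fold spread, against 9.61% of all entries. Their median SD of log2(FPKM + 1) was 0.278 against 0.180 over all measured entries. Top2a, the topoisomerase that untangles replicated DNA, was at 76.5, 98.8 and 65.6 FPKM. Mki67, the proliferation antigen, was at 40.8, 59.9 and 36.2 FPKM, and Pcna, the sliding clamp of DNA polymerase, was at 48.7, 67.7 and 50.2 FPKM. Control 1 was above both other libraries in each of these genes, and in 33 of the 36, against 33.9% of all entries. The median deviation of the list from each gene's own mean, on the log2(FPKM + 1) scale, was -0.09, 0.31 and -0.25 in controls 0, 1 and 2. Over all entries with a mean of at least 1 FPKM these medians were -0.0039, -0.0048 and 0.0035 as deposited. Scaling each library to the same sum moved them to -0.19, 0.15 and 0.03, and control 1 was then highest for all 36 cell cycle genes, against 56.8% of all entries.

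Signals of the stem cell niche could be read from the same libraries. Among the Wnt and R-spondin receptors, Lgr4 (73.5, 67.1 and 52.2 FPKM) and Fzd5 (43.1, 57.0 and 58.1 FPKM) had the highest means, and the coreceptor Lrp5 was level at 22.6, 23.4 and 22.1 FPKM. Ctnnb1, which codes for beta-catenin, was at 280, 278 and 314 FPKM, far above Tcf7l2, its main DNA-binding partner in the gut, at 12.8, 7.67 and 10.3 FPKM. Of 14 Wnt inhibitors and feedback genes, 7 had a mean of at least 1 FPKM, and control 2 was the lowest library for all 7 as deposited, against 34.9% of all entries, and for 5 after scaling to the same sum, against 18.9%. This list overlaps the stem cell list, so the counts of these lists are not independent of each other. Axin2, a feedback target of Wnt that is also in the stem cell list, was at 33.2, 33.3 and 22.3 FPKM. Of the 10 Wnt and R-spondin ligands, 1 had a mean of at least 1 FPKM, the Wnt3 described above. Rspo2 and Rspo3, R-spondins that are known from stromal cells, were listed at 0 in every library.

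As deposited, a 2-fold spread was reached by 1 measured gene of the EGF list and by none of the Notch and BMP lists. Whether these counts differ from the 9.61% of all entries was not tested. In the Notch list, 12 of 15 genes had a mean of at least 1 FPKM and none reached a 2-fold spread, against 9.61% of all entries. Hes1, the repressor that Notch switches on in progenitors, was at 42.8, 50.6 and 44.7 FPKM. Atoh1, the secretory fate factor that Hes1 represses, was at 27.7, 17.8 and 15.9 FPKM, with control 0 highest as for the Paneth genes. The ligands Dll1 (12.1, 13.1 and 17.7 FPKM) and Dll4 (6.34, 4.18 and 6.58 FPKM) lay beside the receptor Notch1, which was at 6.12, 6.39 and 5.38 FPKM. Among EGF family genes, the receptors Erbb3 (63.1, 88.4 and 92.8 FPKM) and Erbb2 (33.6, 42.9 and 51.0 FPKM) were above Egfr, which was at 6.86, 8.03 and 5.57 FPKM. Of the 8 measured members, 1 reached a 2-fold spread, or 12.5% against 9.61% of all entries. It was the ligand Hbegf at 2.60, 3.03 and 6.74 FPKM, while Erbb4 and Nrg1 were listed at 0.

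Of 32 BMP and TGF-beta genes, 21 had a mean of at least 1 FPKM. None of them reached a 2-fold spread as deposited, against 9.61% of all entries. Smad4, the shared mediator of both signals, was at 46.1, 55.5 and 47.8 FPKM. The type 1 receptors Acvr1b (30.3, 32.1 and 37.3 FPKM) and Bmpr1a (26.7, 33.6 and 26.8 FPKM) were the highest receptors. Id1 and Id3, direct BMP targets, were at 38.1, 45.2 and 53.8 FPKM and at 53.9, 60.2 and 75.7 FPKM, highest in control 2. The ligand Bmp4 and the antagonists Grem1 and Nog, known from the stroma, had means of 0.00986, 0.0123 and 0 FPKM.

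Enterocyte transcripts ran opposite to the Paneth transcripts. All 41 listed genes had a mean of at least 1 FPKM, and 33 reached a 2-fold spread, or 80.5% against 9.61% of all entries. Control 2 was the highest library for 40 of the 41, against 36.9% of all entries, and control 0 was the lowest for 33, against 31.2%. Apoa1, an apolipoprotein of lipid export, was at 754, 1017 and 2412 FPKM, and Fabp2, the intestinal fatty acid-binding protein, was at 658, 903 and 1892 FPKM. Anpep, a brush border peptidase, was at 518, 529 and 1524 FPKM, and Sis, the sucrase-isomaltase, was at 266, 374 and 640 FPKM. In each of them control 2 was apart and the other libraries were closer to each other. The exception to the list's order was Ada, adenosine deaminase, at 28.8, 30.6 and 29.5 FPKM. The list held 1.05%, 1.80% and 3.12% of the summed FPKM (1.99% ± 1.05, SD, n = 3), so enterocyte transcripts were part of the crypt preparation in all libraries.

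Among the lists of regional genes, those of the small intestine had the largest summed FPKM. Gata4, a factor of the proximal small intestine, was at 42.8, 55.9 and 56.1 FPKM, and Lct, lactase, was at 39.6, 55.0 and 148 FPKM. Pdx1, a factor of the duodenum, was at 0.0647, 0.203 and 0.106 FPKM. Fabp6, the ileal bile acid-binding protein, varied widely, at 180, 6.40 and 85.5 FPKM. Slc10a2, the ileal bile acid transporter, was at 6.42, 2.62 and 2.74 FPKM. As deposited, control 0 was highest for both ileal genes and control 1 lowest, an order different from that of the enterocyte list. Slc10a2 was nearly equal in controls 1 and 2. After scaling to the same sum, control 0 stayed highest for both, but control 1 was lowest for 1 gene and control 2 for the other. Of 6 genes of the colon and hindgut, Car1, Hoxd10 and Hoxd13 were listed at 0 in every library, while 1 had a mean of 3.88 FPKM. Of 8 stomach genes, Gif alone reached a mean of 1 FPKM (6.97, 2.58 and 0.505 FPKM). Clps, the colipase cofactor of pancreatic lipase, ranked 27th with 4241, 2032 and 585 FPKM, and Pnliprp2, a lipase relative in the Paneth list, was at 2295, 750 and 170 FPKM. Of 7 genes of the exocrine pancreas, however, 6 were listed at 0 in every library, among them Pnlip, Prss2 and Cela2a.

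Goblet cell transcripts had the second largest mean share of the lineage lists, with 3.29%, 2.87% and 2.72% of the summed FPKM (2.96% ± 0.294, SD, n = 3). This share was even, but its members were not. Spink4, a secreted peptide of goblet cells, was at 14277, 8217 and 4101 FPKM. Tff3, the trefoil factor that protects mucus, was nearly level at 3678, 3391 and 4091 FPKM. Zg16, a lectin that binds bacteria in mucus, ran the other way at 777, 1079 and 4761 FPKM. Muc2, the gel-forming mucin itself, was at 392, 163 and 319 FPKM. Of the 20 genes, 9 reached a 2-fold spread as deposited, or 45.0% against 9.61% of all entries. Control 0 was highest for 15 as deposited, against 29.2% of all entries, and for 11 after scaling to the same sum, against 9.22%. Retnlb, a goblet cell peptide that is induced by microbes and worms, had the widest spread of the list, at 109, 26.9 and 0.458 FPKM.

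The antibacterial Reg lectins differed from library to library more than any other pathway list with at least 5 measured members. Reg3b was at 2481, 887 and 10974 FPKM, and Reg3g, which keeps Gram-positive bacteria off the epithelium, was at 1811, 632 and 4541 FPKM. Both were highest in control 2 and lowest in control 1. Reg4, a relative known from secretory cells, had another order at 1524, 999.8 and 352 FPKM. All 6 measured members reached a 2-fold spread, against 9.61% of all entries, and the list held 0.802%, 0.477% and 2.58% of the summed FPKM. The high value in control 2 moved with the enterocyte transcripts, the T cell transcripts given below and the sex of the mouse, and the part of each in it was not tested.

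Hormone and tuft cell transcripts were low, and the 2 cell types ran in different directions. Gip, the incretin of the upper gut, was the highest hormone at 77.4, 93.2 and 127 FPKM. Gcg was at 52.5, 44.5 and 76.5 FPKM, Ghrl at 27.4, 30.7 and 43.5 FPKM and Sst at 20.4, 23.4 and 39.2 FPKM. Chga, a granule protein of hormone cells, was at 41.0, 33.8 and 53.9 FPKM. Of 22 measured enteroendocrine genes, 16 were highest in control 2, against 36.9% of all entries. A 2-fold spread was reached by 2 of the 22, or 9.09%, near the 9.61% of all entries. Neurog3, the factor that starts the endocrine fate, was level at 4.60, 4.53 and 4.45 FPKM. Tuft cells, which sense luminal parasites and metabolites, showed the Paneth order instead. All 18 measured tuft genes were highest in control 0 as deposited, against 29.2% of all entries, and 16 were after scaling to the same sum, against 9.22%. As deposited, 11 of the 18 reached a 2-fold spread, or 61.1% against 9.61% of all entries. Dclk1, the tuft cell kinase, was at 14.8, 8.13 and 5.31 FPKM, Trpm5, the channel of taste signalling, at 16.9, 9.65 and 6.97 FPKM, and Pou2f3, the factor that specifies the lineage, at 8.87, 4.34 and 3.11 FPKM. Il25, the cytokine of tuft cells, had a mean of 0.263 FPKM.

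**Figure D3:**
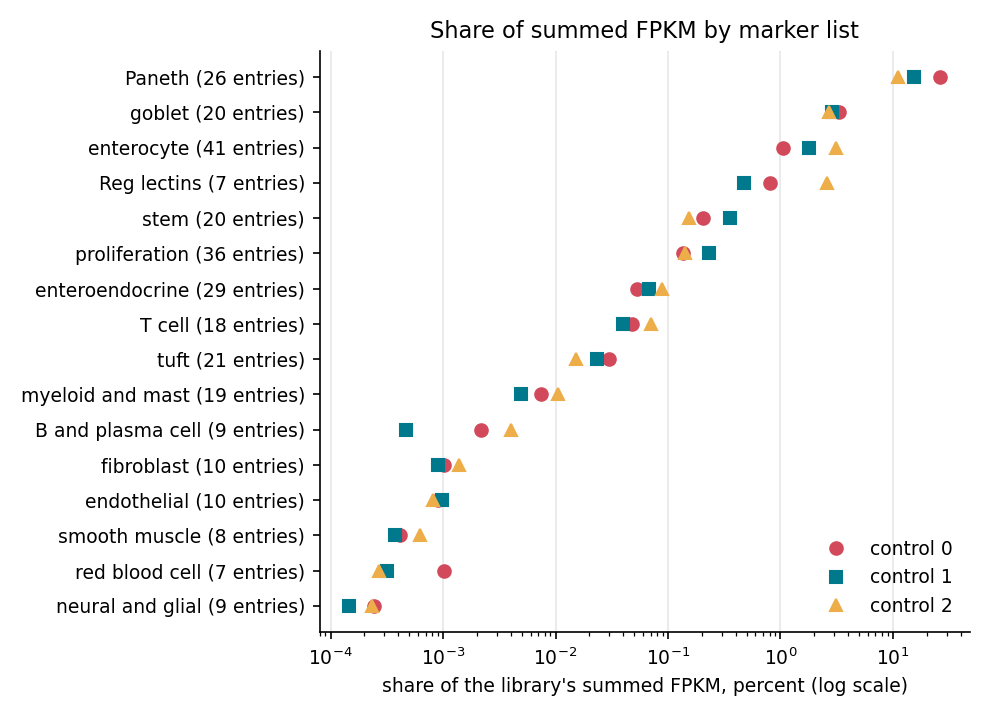
Share of each library's summed FPKM held by each marker list, in percent on a log scale, with a symbol per library and the number of table entries in brackets. Paneth lists hold 11.2% to 26.3%, stem cell lists 0.155% to 0.352%, and the lists of stroma, vessels, nerve and blood lie at 0.00138% or below.

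Cells from outside the epithelium left few transcripts. The 44 entries of the fibroblast, smooth muscle, endothelial, neural, glial and red blood cell lists together held 0.00359%, 0.00271% and 0.00332% of the summed FPKM, and 28 of them had means under 0.1 FPKM. Col1a1, a collagen of fibroblasts, was at 0, 0.0185 and 0.0549 FPKM, and Pdgfra, Lmod1 and Sox10 were listed at 0 in all libraries. The exceptions with a mean of at least 1 FPKM were Vim, Tagln, Esam, Lyve1 and Hbb-b1, of which Vim was the highest at 6.50, 4.79 and 6.99 FPKM. Epithelial genes, in contrast, were high: Epcam was at 685, 833 and 959 FPKM and Krt19 at 1108, 1282 and 1499 FPKM. None of the 8 general epithelial genes reached a 2-fold spread as deposited, against 9.61% of all entries.

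Leukocyte transcripts were present at low levels, mostly of T cells. The 46 leukocyte entries held 0.0570%, 0.0454% and 0.0845% of the summed FPKM. Ccl5, a chemokine of activated T cells, was at 113, 87.2 and 175 FPKM, and Gzma, a cytotoxic granule protease, was at 86.0, 58.8 and 63.9 FPKM. Cd3e, a chain of the T cell receptor complex, was at 7.44, 3.81 and 10.3 FPKM, and Itgae, the integrin that holds lymphocytes in the epithelium, was at 7.51, 4.64 and 11.7 FPKM. Control 1 was the lowest library for all 17 measured T cell genes as deposited, against 33.9% of all entries, and for 13 after scaling to the same sum, against 13.4%. Control 2 was the highest for 15 as deposited, against 36.9%, and for 16 after that scaling, against 34.0%. Igj, the joining chain of secreted antibodies, was at 10.5, 0.293 and 9.82 FPKM. Control 1 was the lowest library for 4 of the 5 measured genes of B and plasma cells, against 33.9% of all entries. It was also lowest for 4 after scaling to the same sum, against 13.4%. Apart from Igj these genes were near the floor, with means from 1.16 to 2.37 FPKM. Mcpt1, a protease of mucosal mast cells, was at 9.99, 3.19 and 12.8 FPKM.

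Transcription factors of the epithelium reached a 2-fold spread about as often as all entries did, as deposited. All 38 had a mean of at least 1 FPKM, and 4 reached a 2-fold spread (among them Creb3l3 and Sox9), or 10.5% against 9.61% of all entries. After scaling to the same sum, 8 reached it, or 21.1% against 11.7% of all entries. Hnf4a, a master factor of enterocyte genes, was at 253, 293 and 231 FPKM, and Elf3 was at 202, 232 and 226 FPKM. Cdx2, which sets intestinal identity, was at 82.4, 98.0 and 99.3 FPKM, and Cdx1, its crypt-enriched relative, was at 94.8, 160 and 88.7 FPKM. Creb3l3, a factor of lipid metabolism, followed the enterocyte list at 37.6, 45.4 and 93.1 FPKM.

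Housekeeping lists differed between libraries by small amounts shared by many members. Of 78 measured genes of oxidative phosphorylation, 1 reached a 2-fold spread (Ndufs5, at 39.2, 22.9 and 16.5 FPKM), or 1.28% against 9.61% of all entries. Control 0 was the lowest library for 73, against 31.2% of all entries. Atp5b, a subunit of ATP synthase, was at 1238, 1549 and 1504 FPKM. The highest library was control 2 for 44 and control 1 for 33 as deposited, but control 1 for 57 after scaling to the same sum, against 56.8% of all entries. Of 75 measured ribosomal protein genes, 50 were highest in control 1 as deposited, against 33.9% of all entries. Rpl8 was at 991, 1197 and 981 FPKM, and 8 genes (10.7%, against 9.61% of all entries) reached a 2-fold spread, among them Rps2 at 1.42, 117 and 13.4 FPKM, Rpl29 at 0.142, 37.5 and 30.4 FPKM and Rpl3 at 19.3, 0.534 and 35.1 FPKM. Such genes have many processed copies in the genome, and their single values are uncertain. Gapdh and Ppia, 2 enzymes that all cells make, were listed at 0.738, 0.473 and 0.615 FPKM and at 0.302, 0.541 and 0.510 FPKM. These entries, chosen after their values were seen, show that a value near 0 in this table is not by itself absence of the transcript, while Actb was at 700, 488 and 925 FPKM.

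**Figure D4:**
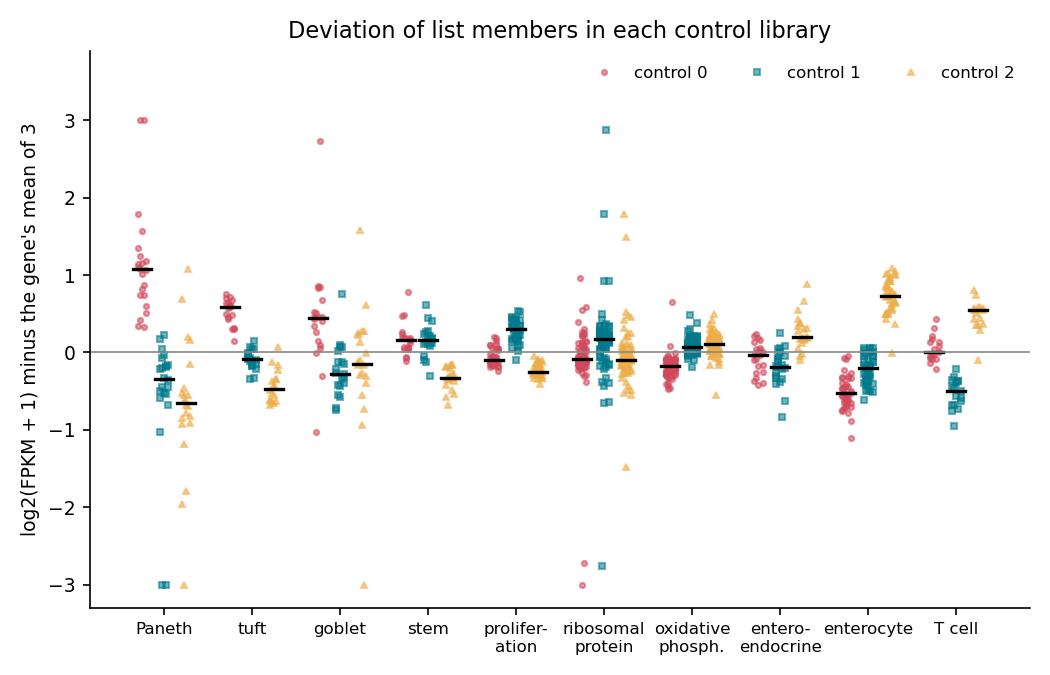
Deviation of each list member with a mean of at least 1 FPKM from its own mean of the 3 controls, on the log2(FPKM + 1) scale, with black bars at the list medians and points beyond 3 drawn at 3. Paneth, tuft and goblet medians are highest in control 0, the cell cycle median in control 1 at 0.31, and the enterocyte and T cell medians in control 2 at 0.73 and 0.54.

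Set side by side, the libraries differed by lineage. Control 0 was highest in Paneth and tuft transcripts, with median deviations of 1.07 and 0.58. Control 1 was highest in the cell cycle (0.31) and ribosomal protein lists (0.18) and lowest in T cell transcripts (-0.50). Control 2 was highest in enterocyte (0.73) and T cell transcripts (0.54) and lowest in stem cell transcripts (-0.32). Under scaling to the same sum, all of these highest and lowest places stayed the same. Since that scaling raised control 1, it could not have cost control 1 the highest place in the cell cycle and ribosomal protein lists. The differences rest on 1 library each and have no replicate of their own, and no test was made.

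Pairs of libraries differed by 2-fold in 453 entries (controls 0 and 1), 703 entries (controls 0 and 2) and 622 entries (controls 1 and 2). Of the 453, 366 were higher in control 0, and of the 622, 516 were higher in control 2. The correlation of log2(FPKM + 1) across these entries was between 0.880 and 0.896 for the 3 pairs, as a description over genes, which are not independent. The spread was not the same at all levels. A 2-fold spread was seen in 12.6% of entries with means of 1 to 5 FPKM, 6.49% at 5 to 20, 8.06% at 20 to 100, 21.4% at 100 to 1000 and 62.1% at 1000 FPKM or more. Without small RNA genes the values of the upper 2 classes were 11.96% and 58.3%.

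**Figure D5:**
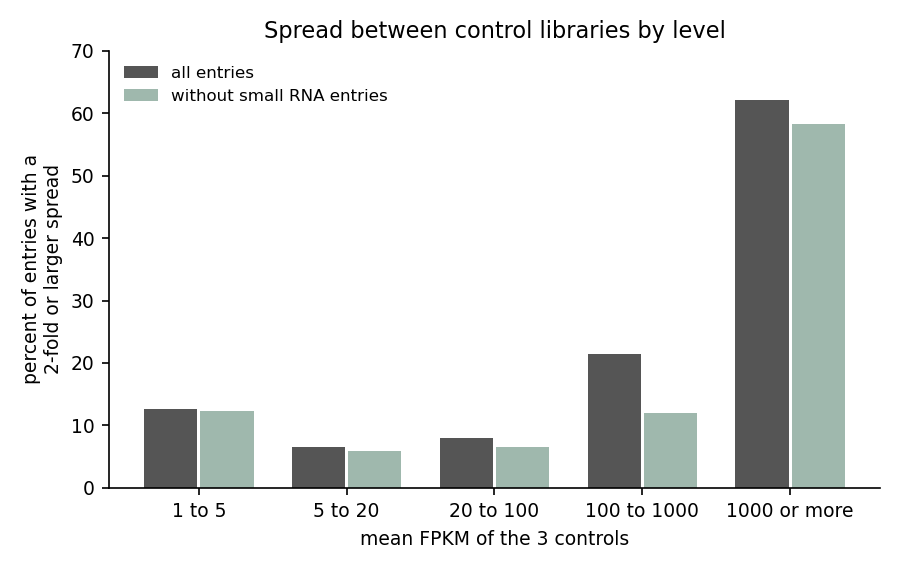
Percent of entries whose highest library was at least 2-fold above the lowest, on the (FPKM + 1) scale, by mean level, for all entries and without small RNA entries. The share is lowest at 5 to 20 FPKM (6.49%) and highest at 1000 FPKM or more (62.1%).

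The 10 widest genes by the SD of log2(FPKM + 1), among those with a mean of at least 5 FPKM and leaving out predicted and small RNA genes, were of different kinds. Defa6, Pla2g2a, Retnlb, Xist, Eif2s3y, Rpl29 and Rps2 were given above. The pseudogenes Rpl34-ps1 and Rps15a-ps6 were at 296, 2.19e-07 and 305 FPKM and at 0.357, 34.5 and 1.01 FPKM. Pla2g4c, a cytosolic phospholipase, was at 307, 139 and 4.73 FPKM and followed the Paneth order. The 5 tightest, from a mean of 50 FPKM upwards, were Capzb, Coro1c, Cfl1, Cox17 and Nadk. Cfl1, the actin-severing cofilin, was at 320, 324 and 328 FPKM, and Capzb, an actin capping subunit, was at 149, 151 and 152 FPKM.

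Entries that were on in 1 library, at 5 FPKM or more, and under 0.1 FPKM in another numbered 155. Of these, 142 were small RNA genes, 3 were predicted genes and 10 were others. Small RNA genes, many of them shorter than the fragments a library of this kind keeps, also reached the top of the ranking: 18 of the 66 entries with a mean of at least 1000 FPKM were small RNA genes. Mir7646 was at 10006.5 FPKM in control 0 and 0 in controls 1 and 2, and Snord69 was at 6699, 0 and 0 FPKM, both chosen after their values were seen. Small RNA entries made up 14.1%, 9.53% and 14.9% of the summed FPKM, and so they enter every share given above. The other 10 included Defa6, Rpl34-ps1, the 4 Y-linked genes Eif2s3y, Ddx3y, Kdm5d and Uty, which were at 0 in control 2, and Slc34a3, a phosphate transporter, at 0, 10.2 and 0.523 FPKM.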

How the data were processed

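RNA of 9 crypt samples was sequenced; the files hold no read numbers, so depth is unknown. Per the submitters' processing notes, TopHat2 2.1.1, Cuffnorm 2.2.1 and Cuffdiff 2.2.1 were used on mm9; which gene models were used is not stated in the labels. The authors deposited FPKM per gene in 2 tables; each control differs between them by a single factor (1.03, 1.06 and 1.04). From low values, the depth of controls 1 and 2 was 1.08 and 1.42 times that of control 0, scaling included.

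Means, SDs, ranks, shares and spreads were computed with Python 3.11.15, numpy 2.4.6 and pandas 2.3.3 from controls 0, 1 and 2 of the first table, with a pseudocount of 1 for log2 values; the spread script was tested on simulated data. No test was made, since 1 group was described. Members and lists were chosen with earlier results of these data known. Genes named were the 5 markers, the 25 highest means, up to 6 members of each list by mean and defining members at 0, the 10 widest and 5 tightest; the others were chosen after their values were seen, and some genes that the rule chose are left out of this text. Sequences came from GENCODE M21 and RefSeq (GRCm38), a build other than the authors'.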

Additional observations from a re-analysis of the deposited data

How the results depend on the processing

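Of 46 alternative values, 40 stayed within 1 SD or 1.5 times of the reported one and 6 moved. Some of the 40 could not have moved. Leaving out 1 of 3 libraries cannot shift a mean share by 1 SD. The other deposited version of the controls differs by a single factor per library and so leaves every share unchanged. The count of entries with a 2-fold spread (1113) came to between 453 and 703 without any 1 library, since fewer libraries give a smaller range: 622 without control 0, 703 without control 1 and 453 without control 2. It was 607 with a pseudocount of 5, which shrinks the ratios of low genes. The stem cell share of 0.238% became 0.376% when the 50 highest entries were left out of the denominator, and 0.0782% without Olfm4, both by construction. The Paneth share was between 13.3% and 20.9% and the enterocyte share between 1.43% and 2.46% without any 1 library. With the alpha-defensins found by RefSeq synonym, an alternative chosen after seeing the data, the Paneth share was 21.8%. No paired analysis was possible because 1 group was described and no result comes from a test. With 3 libraries an SD is itself imprecise. FPKM values hold no read numbers, so no counting error can be given, and values of genes with near copies depend on how the authors' tools shared their reads.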
